A study of Caenorhabditis elegans with 29 samples.

Results

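The data described here are from dissected hermaphrodite gonads of Caenorhabditis elegans in which P-granule factors had been depleted by RNA interference, and they set Day 1 adults against L4 larvae. The comparison asks which larva-to-adult changes take place without those factors. It rests on 6 libraries of the 29 in the series, 3 of Day 1 P-granule RNAi gonads and 3 of L4 P-granule RNAi gonads, chosen by stage and RNAi treatment as labelled, with no measured value used. They are set beside 3 Day 1 control and 3 L4 control libraries. The RNAi and control comparisons share no library, but both come from 1 fit with a shared estimate of each gene's spread. All 4 groups were of strain DP132, which carries the integrated transgene edIs6 on chromosome IV. In it the promoter unc-119p of a neuronal gene drives an unc-119::gfp reporter, beside the collagen marker gene rol-6. In the RNAi groups, 4 genes were targeted together (glh-1 and glh-4, with pgl-1 and pgl-3) from the L1 larvae of the parents onwards, and control worms ate bacteria with the empty vector. Worms of all 4 groups were kept at 24 °C, and gonads were taken from their offspring, at L4 or 1 day later, with the RNAi groups labelled as without visible UNC-119::GFP.

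What the groups can stand for is limited by how gonads were chosen. Day 1 RNAi gonads came only from sterile worms, while L4 worms could not be scored for sterility and only more than 80% of adults grown from the same population were sterile. L4 gonads, control gonads and large Day 1 RNAi gonads were cut at the bend, and stunted Day 1 RNAi gonads were taken whole. Each RNAi library pooled 125 to 150 gonads and each control library 75 to 100, so germ cells and attached somatic cells were measured together. Fewer cells of a type and less RNA per cell therefore cannot be told apart in any result here.

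P granules are assemblies of RNA and protein that surround germ cell nuclei. PGL-1 and PGL-3 form their scaffold, and GLH-1 and GLH-4 are Vasa-type RNA helicases; losing them together makes worms sterile at raised temperature and lets some germ cells express somatic genes. A hermaphrodite germ line makes sperm during L4 and then changes to oocytes, which take up yolk proteins made in the intestine and are wrapped by contractile gonadal sheath cells.

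The deposited table holds normalized group averages, from which the whole reads of each library were recovered. Within a group the libraries carry the letters a to c, the deepest being a, and a level below is a read number divided by the library's deposited size factor (a normalized read). Values of single libraries are given in the order a, b, c. Reads on genes numbered 3745929, 2933959 and 1027223 in the Day 1 RNAi libraries and 3749155, 3150402 and 1555591 in the L4 RNAi libraries. They ranged over 1221224 to 6146118 in the Day 1 control libraries and 1207471 to 3012339 in the L4 control libraries. The 4 targets together had 350.2, 281 and 223 normalized reads in the Day 1 RNAi libraries, against 5561 to 5793 in the Day 1 control libraries. They had 241, 939.9 and 202 in the L4 RNAi libraries, against 6102 to 7535 in the L4 control libraries. The targets were thus low in all 6 RNAi libraries, with L4 RNAi library b the highest of them.

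L4 RNAi library a stood apart from its group. It correlated with L4 RNAi libraries b and c at Pearson's r of 0.757 to 0.812 across 10243 genes, while b and c correlated with each other at 0.948. The same library correlated with the 3 L4 control libraries at 0.897 to 0.954 and with the 3 Day 1 RNAi libraries at 0.689 to 0.758. L4 RNAi libraries b and c correlated with the Day 1 RNAi libraries at 0.898 to 0.952, a range that overlaps the 0.926 to 0.946 among the Day 1 RNAi libraries. For comparison, Day 1 and L4 control libraries correlated at 0.649 to 0.809. These values describe likeness across genes, which are not independent replicates. Values without library a are given below beside those with all libraries for the genes and lists on which it bore most.

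**Figure D1:**
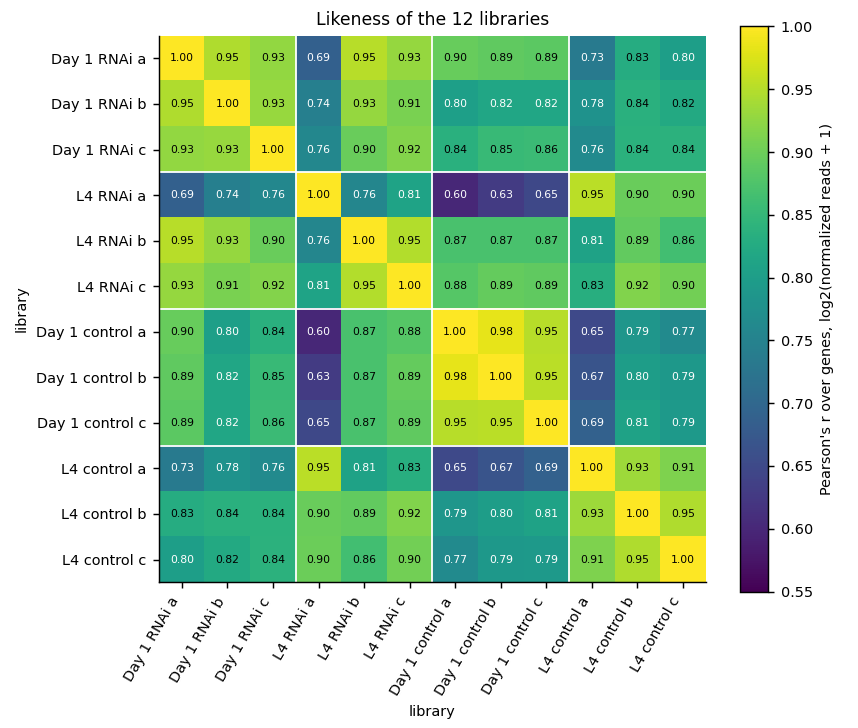
Pearson correlation of log2 levels between each pair of the 12 libraries over 10243 genes, with each cell shaded and labelled by r. L4 RNAi library a reaches 0.897 to 0.954 with the L4 control libraries and 0.757 to 0.812 with the other L4 RNAi libraries.

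Some marker genes of other cell types moved with that library. The 6 hypodermis markers summed to 445, 379 and 422 normalized reads in the Day 1 RNAi libraries, against 2682, 385 and 400.4 in the L4 RNAi libraries, and 1 of the 6 was at 0 in 4 of these 6 libraries. The 5 body wall muscle markers, of which 1 was at 0 in every library, summed to 1842, 2841 and 3167 in the Day 1 RNAi libraries, against 11172, 2435 and 2732 in the L4 RNAi libraries. The 7 intestine markers, all detected in every library, summed to 39892, 121751 and 151215 in the Day 1 RNAi libraries, against 24875, 26261 and 50806 in the L4 RNAi libraries. Among the 6 RNAi libraries, the hypodermis and muscle markers were high in L4 RNAi library a alone. The intestine markers, which include the yolk protein genes vit-2 and vit-6, were highest in Day 1 RNAi libraries b and c. Listed intestine genes other than yolk protein genes were instead highest in L4 RNAi library a, at 1.20% of its reads. They took 0.129%, 0.460% and 0.562% in the Day 1 RNAi libraries. L4 control libraries were high as well, at 3232, 1005 and 875 for hypodermis and 7784, 4997 and 7195 for muscle. The 4 gonadal sheath markers, all detected, summed to 561, 859.7 and 731 in the Day 1 RNAi libraries, against 713, 431 and 485 in the L4 RNAi libraries. The 6 neuron markers summed to 224, 198 and 367 in the Day 1 RNAi libraries, against 135, 107 and 138 in the L4 RNAi libraries, with 1 of them at 0 in L4 RNAi library b. The 4 pharyngeal muscle markers summed to 7.12 to 92.7 in the Day 1 RNAi libraries, against 17.9 to 27.6 in the L4 RNAi libraries, with up to 2 of them at 0 in a library. The 6 markers of germ cells of both sexes, all detected, summed to 6561, 6129.7 and 5247 in the Day 1 RNAi libraries, against 5696, 8049 and 7548 in the L4 RNAi libraries. They include the RNAi targets pgl-1 and glh-1, so the sum is lowered by the RNAi itself. The labelled tissue was thus present in all 6 libraries, with somatic RNA beside it. The part of these other tissues in the results below was not tested.

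Few genes passed the test between L4 and Day 1 in RNAi gonads. Of 22791 genes tested, 137 passed (0.601%), 40 of them higher at Day 1 (0.176%) and 97 lower (0.426%). A gene passed where limma voom, fitted to all 12 libraries, gave a Benjamini-Hochberg adjusted p below 0.05, and 1742 genes had an unadjusted p below 0.05. A change of at least 2-fold was fitted for 4640 genes, most of which did not pass, so a gene that did not pass is not shown to be unchanged. Control gonads gave 3562 calls by the same fit (15.6%), 893 higher at Day 1 (3.92%) and 2669 lower (11.7%). The median gene had a log2 fold change of 0.16 in RNAi gonads and −0.45 in control gonads, with a median standard error of 0.92 in RNAi gonads and 1.02 in control gonads. The control count rested on single libraries, with 1 gene higher and 15 lower without Day 1 control library a, 3 and 448 without L4 control library a, and 175 and 637 without Day 1 control library b. Calls in control gonads named below rest on those libraries. The labels do not say that replicates are separate cultures, so these p-values measure the spread between these libraries.

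The size of the call set depended on single libraries and on the fit. Without L4 RNAi library a, 35 genes were higher and 109 lower, of which 27 and 75 were among the 40 and 97 (0.152% and 0.475% of the genes then tested). Without that library the test of the difference between treatments called 2563 genes with the higher change in RNAi gonads (11.2%) and 786 with the lower (3.42%), the shares beside which the list counts without it below stand. Leaving out each of the 6 RNAi libraries in turn gave 16 to 42 genes higher and 11 to 109 lower, and 14 higher and 9 lower genes were called every time. A fit to the 6 RNAi libraries alone called 2 genes higher and 4 lower. Scaling to total reads gave 39 higher and 18 lower, of which 35 and 16 were among the 40 and 97. Upper-quartile scaling gave 19 higher and 36 lower, of which 13 and 1 were among them, and limma-trend with a pseudocount of 1 gave 19 and 69, of which 16 and 30 were.

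The genes that rose made larger steps than those that fell. The 40 higher genes had a median log2 fold change of 1.56, and 38 of them were at least 2-fold higher. The 97 lower genes had a median of −0.55, and 1 of them, col-139, was at least 2-fold lower. Of the 97, 67 were also lower at Day 1 in control gonads, which is 69.1% of the RNAi set and 2.51% of the control set, and none was called higher there. Of the 40, 9 were also higher in control gonads, 22.5% of the RNAi set and 1.01% of the control set, and 5 were lower there. Each gene's spread was estimated once for both comparisons, so the RNAi and control calls are not independent of each other.

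**Figure D2:**
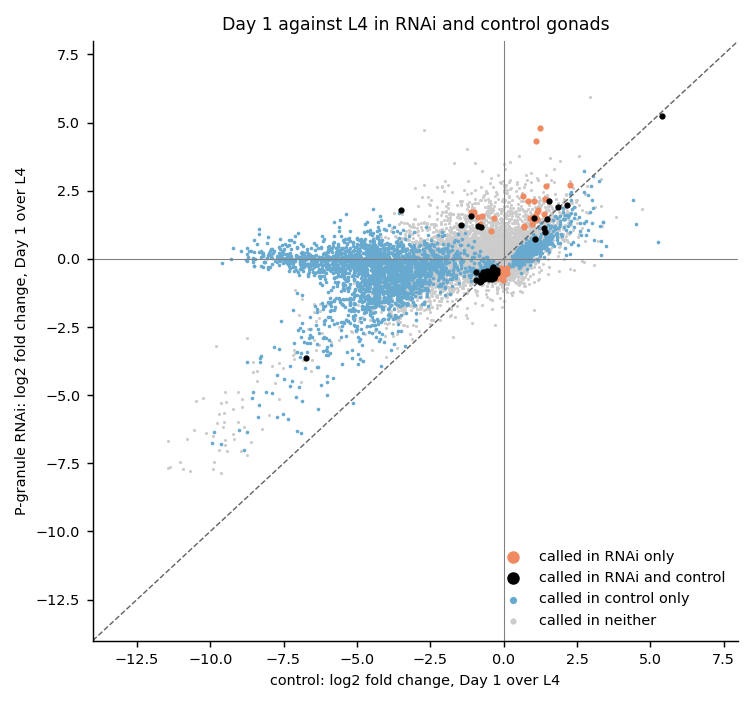
Log2 fold change of Day 1 over L4 in RNAi gonads against that in control gonads for the 11635 genes that average at least 10 normalized reads in a group, coloured by which comparison called them. The 81 genes called in both lie on the same side of 0 on both axes, apart from 5 that were higher in RNAi and lower in control gonads, and the 3369 called in control gonads alone spread widely along the control axis.

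The 10 genes with the largest rise, and others called with them, are described by what each is known to do. tbh-1 (WBGene00006541), the tyramine beta-hydroxylase that makes octopamine in a few neurons and in gonadal sheath cells, had 3211, 3550.4 and 2559.9 normalized reads in the Day 1 RNAi libraries, against 178, 1069 and 968 in the L4 RNAi libraries. All 3 Day 1 libraries were above all 3 L4 libraries (log2 fold change 2.70 ± 0.42 SE, adjusted p = 0.0121 by limma voom, lost without Day 1 RNAi library b). It was 1.66 without L4 RNAi library a and 3.36 without L4 RNAi library b. In control gonads tbh-1 had 439, 445 and 422 in Day 1 control libraries, against 41.7, 211 and 205 in L4 control libraries, a log2 fold change of 2.25 ± 0.99 (SE) that did not pass (adjusted p = 0.148). The test of the difference between the RNAi and control changes did not pass either (adjusted p = 0.837).

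A pair of genes of the eggshell list rose with it. perm-4 (WBGene00016638) had 7461, 7221 and 8497 normalized reads in the Day 1 RNAi libraries, against 976, 2548 and 2785 in the L4 RNAi libraries. Its log2 fold change was 2.11 ± 0.27 (SE, adjusted p = 0.00529), and the call held without any single RNAi library, at 1.51 without L4 RNAi library a. perm-2 (WBGene00016636) had 3121, 3031 and 4289 normalized reads in the Day 1 RNAi libraries, against 215, 809 and 1152 in the L4 RNAi libraries. The libraries of both stages did not overlap (log2 fold change 2.66 ± 0.47 SE, adjusted p = 0.0233), though the call was lost without L4 RNAi library b or any 1 Day 1 RNAi library, and the value was 1.80 without L4 RNAi library a. The other 21 genes of the eggshell list did not pass.

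Enzyme genes followed. try-14 (WBGene00018605), which encodes a trypsin-like protease, had 665, 879.9 and 662 normalized reads in the Day 1 RNAi libraries, against 107, 230.4 and 231 in the L4 RNAi libraries (log2 fold change 2.12 ± 0.28 SE, adjusted p = 0.00529). cht-3 (WBGene00016084), a chitinase gene, had 1719, 2086 and 2186 normalized reads in the Day 1 RNAi libraries, against 233, 759 and 928 in the L4 RNAi libraries (log2 fold change 1.96 ± 0.33 SE, adjusted p = 0.0183, lost without Day 1 RNAi library b or c, and 1.22 without L4 RNAi library a). skpo-1 (WBGene00009897), a peroxidase gene, had 1319.8, 1386 and 1208 normalized reads in the Day 1 RNAi libraries, against 207, 470.0 and 587 in the L4 RNAi libraries (log2 fold change 1.91 ± 0.26 SE, adjusted p = 0.00529). In each of these genes the lowest level was that of L4 RNAi library a, and the Day 1 libraries lay above all L4 libraries. They rose in control gonads as well, by log2 fold changes of 1.54 for try-14, 2.16 for cht-3 and 1.87 for skpo-1 (adjusted p = 0.0295, 0.0225 and 0.011 in that order).

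col-95 (WBGene00000670), a cuticle collagen gene, had the largest rise of all genes named by size. It had 434, 639 and 806 normalized reads in the Day 1 RNAi libraries, against 2.104, 43.8 and 44.5 in the L4 RNAi libraries, and 164, 271 and 313 in Day 1 control libraries, against 0, 8.02 and 66.0 in L4 control libraries. Levels were low at L4 and high at Day 1 in both treatments, with log2 fold changes of 5.25 ± 1.02 (SE, adjusted p = 0.039) in RNAi gonads and 5.39 ± 1.52 (SE, adjusted p = 0.0331) in control gonads. The RNAi call was lost without L4 RNAi library b or c or Day 1 RNAi library b or c, and the RNAi value was 3.61 without L4 RNAi library a and 6.14 without L4 RNAi library b. Reads of near-identical collagen copies can be shared, so its level is uncertain. cup-16 (WBGene00007919) had 48.5, 71.2 and 85.8 normalized reads in the Day 1 RNAi libraries, against 1.05, 1.15 and 13.3 in the L4 RNAi libraries, where 1.05 and 1.15 are 1 read each. Its call (log2 fold change 4.32 ± 0.84 SE, adjusted p = 0.039) held only without L4 RNAi library c among the 6 omissions, at 5.22. plag-15 (WBGene00010872) had 121, 134 and 134 normalized reads in the Day 1 RNAi libraries, against 18.9, 29.9 and 31.1 in the L4 RNAi libraries, and its rise of 2.32 ± 0.32 (SE, adjusted p = 0.00534) was called whichever RNAi library was left out. The remaining genes named by size, T04G9.7 and C17G1.2, rose by 2.18 and 2.13 on the log2 scale (adjusted p = 0.0343 and 0.0106). The first call was lost without any RNAi library but L4 RNAi c and the second without Day 1 RNAi library b.

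**Figure D3:**
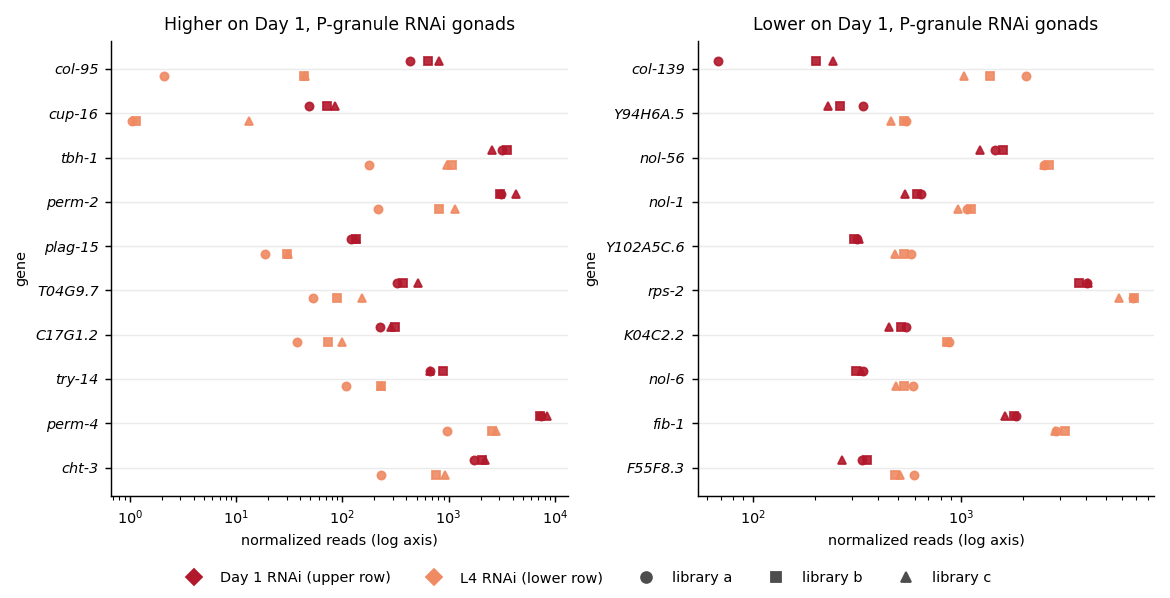
Levels in each RNAi library for the 10 genes named by size among those higher at Day 1 (left) and the 10 among those lower (right), on a log axis of normalized reads, with 1 point per library and Day 1 drawn above L4 for each gene. For tbh-1 the Day 1 RNAi points sit between 2559.9 and 3550.4, all above the 178 to 1069 of the L4 RNAi points.

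fog-1, spat-3 and utx-1 rose in both treatments. fog-1 (WBGene00001481), a CPEB-related RNA-binding protein that sets the sperm fate, had 314, 338 and 302 normalized reads in the Day 1 RNAi libraries, against 101, 128 and 111 in the L4 RNAi libraries. The stages did not overlap, and the log2 fold change of 1.504 ± 0.17 (SE, adjusted p = 0.0036) was called without any single RNAi library. In control gonads fog-1 rose by 1.02 (adjusted p = 0.0217). spat-3 (WBGene00020496), a RING-finger protein gene, had 787, 719.8 and 872 normalized reads in the Day 1 RNAi libraries, against 375, 350.2 and 494 in the L4 RNAi libraries, and rose by 0.99 ± 0.14 (SE, adjusted p = 0.00834). utx-1 (WBGene00017046), a histone H3K27 demethylase gene, had 140.1, 160.1 and 182 normalized reads in the Day 1 RNAi libraries, against 67.3, 62.2 and 93.4 in the L4 RNAi libraries. Its rise of 1.12 ± 0.22 (SE, adjusted p = 0.039) was lost without any library but L4 RNAi c, while in control gonads it rose by 1.37 (adjusted p = 0.0178). The other genes called higher in both treatments were ten-1, R07E4.5, skpo-1, cht-3, try-14 and col-95.

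A group of 5 genes rose in RNAi gonads and fell in control gonads, and each passed the test of that difference. Without Day 1 control library a only 1 gene, far-2, passed that test with the higher change in RNAi gonads and none passed with the lower. All other differences called with all libraries were thus lost without Day 1 control library a. Without L4 control library a, 28 genes passed with the higher change and none with the lower. These genes, and the others of the next paragraph, were chosen after their values were seen. far-2 (WBGene00001386), a fatty acid and retinol binding protein gene, had 8087, 8688 and 9159 normalized reads in the Day 1 RNAi libraries, against 4009, 3595 and 3255 in the L4 RNAi libraries. It had 1087, 1840.1 and 1542 in Day 1 control libraries, against 2181, 2188 and 3014 in L4 control libraries. Its level thus went up in one treatment and down in the other, with log2 fold changes of 1.18 ± 0.11 (SE, adjusted p = 0.0012) in RNAi gonads and −0.78 ± 0.20 (SE, adjusted p = 0.0246) in control gonads, a difference of 1.95 (adjusted p = 0.00546). ctsa-1.1 (WBGene00018271), a cathepsin A-like gene, had 3508, 4593 and 4224 normalized reads in the Day 1 RNAi libraries, against 1871, 1547 and 1631 in the L4 RNAi libraries, and 479, 628 and 519 in Day 1 control libraries, against 1034, 849.7 and 962 in L4 control libraries. The difference of its log2 fold changes was 2.08 (adjusted p = 0.00767). pho-14 (WBGene00020471), a predicted acid phosphatase gene, had 474, 561 and 456 normalized reads in the Day 1 RNAi libraries, against 163, 158 and 209 in the L4 RNAi libraries, and 47.5, 74.8 and 45.5 in Day 1 control libraries, against 118, 126 and 122 in L4 control libraries, a difference of 2.67 (adjusted p = 0.00546). In all 3 genes the libraries of both stages were apart in each treatment. The difference was called under every omission of 1 of the 12 libraries for far-2, and was lost without Day 1 control library a for pho-14 and without Day 1 or L4 control library a for ctsa-1.1.

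The last pair had lower levels. hex-1 (WBGene00020509), a beta-hexosaminidase gene, had 352, 496 and 360.3 normalized reads in the Day 1 RNAi libraries, against 191, 149.7 and 165 in the L4 RNAi libraries, and 21.7, 27.7 and 42.5 in Day 1 control libraries, against 70.8, 64.1 and 83.3 in L4 control libraries. gst-24 (WBGene00001772), a glutathione S-transferase gene, had 104.2, 114 and 106 normalized reads in the Day 1 RNAi libraries, against 28.4, 29.9 and 37.8 in the L4 RNAi libraries, and 1.17, 2.52 and 0 in Day 1 control libraries, against 24.0, 16.03 and 17.4 in L4 control libraries. The RNAi rise of 1.24 for hex-1 and of 1.79 for gst-24 (adjusted p = 0.0124 and 0.012) was lost without L4 RNAi library b or Day 1 RNAi library b. The differences between treatments, 2.70 for hex-1 and 5.29 for gst-24 (adjusted p = 0.0167 and 0.00554), were lost without Day 1 control library a, and that of hex-1 also without L4 control library a or Day 1 control library b. ccg-1, F37C4.5 and Y69H2.3 rose in RNAi gonads by 1.71, 1.53 and 1.58 on the log2 scale (adjusted p = 0.00484, 0.00529 and 0.00484). Their control changes of −1.12, −0.86 and −0.73 did not pass, and the differences of 2.83, 2.39 and 2.31 did (adjusted p = 0.0122, 0.0166 and 0.0225), each lost without Day 1 control library a or b or L4 control library a. The genes called higher under every omission of 1 RNAi library also held C39D10.7 and sdz-27, which rose by 1.80 and 1.49 (adjusted p = 0.00484 and 0.00529).

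Among the genes that fell, those for making ribosomes and protein stood together. Ribosomal proteins form the ribosome with ribosomal RNA, and 28 of 80 tested fell at Day 1 in RNAi gonads with none higher, a median log2 fold change of −0.54 against 0.16 over all genes. In 71 of the 80, all 3 Day 1 RNAi libraries were below all 3 L4 RNAi libraries, against 4.52% of all genes. The 80 genes together took 7.61%, 6.899% and 7.17% of reads in the Day 1 RNAi libraries, against 9.60%, 9.85% and 9.22% in the L4 RNAi libraries. In control gonads 63 of the 80 fell, with a median of −0.41 against −0.45 over all genes, of which 6297 had no read in the L4 control libraries. The authors' deposited category of ubiquitous genes had medians of −0.04 in RNAi and −0.02 in control gonads. Their germline-enriched genes had medians of 0.11 and 0.40. The test of the difference called 1 ribosomal protein gene, rpl-25.1. With upper-quartile scaling that test called 2 members with the higher change in RNAi gonads and 26 with the lower.

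Single members showed the same order of libraries. rps-2 (WBGene00004471) had 4046, 3720.0 and 4108 normalized reads in the Day 1 RNAi libraries, against 6759, 6808 and 5798 in the L4 RNAi libraries (log2 fold change −0.75 ± 0.12 SE, adjusted p = 0.0146). rps-23 (WBGene00004492) had 4435, 4171 and 3761 normalized reads in the Day 1 RNAi libraries, against 6601, 6039 and 5259 in the L4 RNAi libraries (log2 fold change −0.53 ± 0.07 SE, adjusted p = 0.00529). The stages were apart in both genes, yet the rps-2 call was lost without L4 RNAi library b or any 1 Day 1 RNAi library and the rps-23 call without Day 1 RNAi library b. The count of 28 ribosomal protein genes was 19 without L4 RNAi library a, 7 without L4 RNAi library b, 4 without Day 1 RNAi library a or c and 0 without Day 1 RNAi library b. It was 8 with scaling to total reads and 0 with upper-quartile scaling. Relative to the median of all genes under the same scaling, the RNAi list median was −0.70 with the deposited factors, −0.69 with total reads and −0.62 with upper-quartile scaling, and the control list median was 0.04, 0.08 and 0.13. By the same measure ubiquitous genes lay at −0.20, −0.20 and −0.14 in RNAi gonads and at 0.43, 0.49 and 0.52 in control gonads, above the ribosomal protein list in both. Upper-quartile scaling raised the control median of all genes by 1.14 and turned the control direction of the list, with 63 of 80 then higher, as it did for the 71 core histone genes (38 higher and 3 lower) and the 42 heat shock and stress genes (17 higher and 9 lower). Control falls smaller than that shift, those of nucleolar and translation genes below included, hold relative to the deposited size factors.

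Nucleolar proteins, which process ribosomal RNA, gave 4 of the 10 largest falls. nol-56 (WBGene00010627), a core protein of box C/D small nucleolar ribonucleoproteins, had 1472, 1602 and 1239 normalized reads in the Day 1 RNAi libraries, against 2534, 2663 and 2525 in the L4 RNAi libraries (log2 fold change −0.80 ± 0.11 SE, adjusted p = 0.00529, lost without Day 1 RNAi library a). nol-1 (WBGene00021073), another nucleolar protein gene, had 642, 619 and 539 normalized reads in the Day 1 RNAi libraries, against 1074, 1118 and 968 in the L4 RNAi libraries (log2 fold change −0.79 ± 0.10 SE, adjusted p = 0.00484, called under every omission). fib-1 (WBGene00001423), which encodes fibrillarin, had 1857, 1804 and 1644 normalized reads in the Day 1 RNAi libraries, against 2868, 3181 and 2859 in the L4 RNAi libraries (log2 fold change −0.72 ± 0.11 SE, adjusted p = 0.012, lost without Day 1 RNAi library a or b). In these genes the highest Day 1 level was below the lowest L4 level. All 3 fell in control gonads too, with log2 fold changes of −0.77 for nol-56, −0.93 for nol-1 and −0.66 for fib-1 (adjusted p = 0.00337, 0.00193 and 0.00451). Of 9 genes named nol or fib-1, a group drawn up after the values were seen, 5 fell in RNAi gonads and 6 in control gonads. nol-6 fell by 0.73 (adjusted p = 0.0327), a call lost without any RNAi library but L4 RNAi c. The other genes named by size fell by 0.85 for Y94H6A.5, 0.78 for the pseudogene Y102A5C.6, 0.74 for K04C2.2 and 0.69 for F55F8.3 (adjusted p = 0.0241, 0.039, 0.00529 and 0.0469), and of these K04C2.2 was called under every omission, Y94H6A.5 under 3 of the 6, Y102A5C.6 under 1 and F55F8.3 under none. The RNA polymerase I subunit genes rpoa-1 and rpoa-2 fell by 0.53 and 0.62 (adjusted p = 0.034 and 0.039). The rpoa-1 call was lost without any RNAi library but L4 RNAi a or c and the rpoa-2 call without any 1 RNAi library. In all, 3 of 10 subunit genes of RNA polymerases I and III fell, and 2 fell in control gonads. This group too was drawn up after the values were seen. Over all genes 0.426% fell in RNAi gonads and 11.7% in control gonads.

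Genes of translation factors, tRNA synthetases and chaperones fell in RNAi gonads as well. Of 39 translation factor genes 9 fell, of 35 aminoacyl-tRNA synthetase genes 6 fell and of 8 subunit genes of the cytosolic chaperonin 4 fell, with none higher in these groups, which were also drawn up after the values were seen. Over all genes 0.426% fell in RNAi gonads and 11.7% in control gonads. In control gonads 7 translation factor genes fell, 4 synthetase genes fell and 1 rose, and 1 chaperonin gene fell and 1 rose. gcn-1 (WBGene00021697), a ribosome-associated regulator of translation, had 1998, 1909 and 1784 normalized reads in the Day 1 RNAi libraries, against 3073, 2937 and 2703 in the L4 RNAi libraries (log2 fold change −0.61 ± 0.08 SE, adjusted p = 0.00484, called under every omission). eef-2, an elongation factor gene, fell by 0.54 (adjusted p = 0.0104, lost without any 1 Day 1 RNAi library). iars-1, the isoleucine tRNA synthetase gene, fell by 0.61 (adjusted p = 0.00529, called under every omission).

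Some genes of these kinds fell in RNAi gonads and not by the test in control gonads, with a difference that passed. vars-2 (WBGene00006936), a valine tRNA synthetase gene, had 1347, 1302 and 1122 normalized reads in the Day 1 RNAi libraries, against 2111, 2107 and 1799.8 in the L4 RNAi libraries. Its levels were 2096, 1922 and 1894 in Day 1 control libraries, against 2213, 2215 and 2018 in L4 control libraries, and the difference of log2 fold changes was −0.55 (adjusted p = 0.0314). cct-2 (WBGene00000378), a chaperonin subunit gene, had 1119, 1159 and 1095 normalized reads in the Day 1 RNAi libraries, against 1588, 1624 and 1564 in the L4 RNAi libraries, and 1680.2, 1821 and 1851 in Day 1 control libraries, against 1702, 1897 and 1677 in L4 control libraries. The RNAi stages were apart and the control stages overlapped, with a difference of −0.50 (adjusted p = 0.0293), while the RNAi call was lost without Day 1 RNAi library a or b. cct-8 differed by −0.53 (adjusted p = 0.0391). The difference was lost under 8 of the 12 omissions of 1 library for vars-2 and under 9 for cct-2 and cct-8, while those of the next genes were lost without Day 1 or L4 control library a and, for hsp-110, also without Day 1 control library b. hsp-110 (WBGene00016250), a chaperone of the HSP70 superfamily, had 2096, 2048 and 1891 normalized reads in the Day 1 RNAi libraries, against 2707, 2964 and 2734 in the L4 RNAi libraries, and 3059, 3039 and 3010.2 in Day 1 control libraries, against 2978, 3126 and 3025 in L4 control libraries. Its difference was −0.46 (adjusted p = 0.0158), and its fall in RNAi gonads (−0.45 ± 0.06 SE, adjusted p = 0.00484) was called under every omission. daf-21, the HSP90 gene, fell by 0.32 in RNAi gonads (adjusted p = 0.0225, lost without any RNAi library but L4 RNAi a or c), with a difference of −0.45 (adjusted p = 0.0167). clu-1 (WBGene00000550) had 1609.8, 1526 and 1311 normalized reads in the Day 1 RNAi libraries, against 2273, 2156 and 2187 in the L4 RNAi libraries, and a difference of −0.63 (adjusted p = 0.00767). In the list of 42 heat shock and stress genes, hsp-110, daf-21 and hsp-60 fell and pek-1, the PERK kinase of the unfolded protein response, rose by 1.15 (adjusted p = 0.0183), with a list median of −0.23. The pek-1 call was lost without L4 RNAi library b or Day 1 RNAi library a or b, and that of hsp-60 (−0.69, adjusted p = 0.0233) without L4 RNAi library b or Day 1 RNAi library b or c.

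Among 66 genes of germ granules and small RNA pathways, 3 fell at Day 1 in RNAi gonads and none rose, with a median of −0.10. csr-1 (WBGene00017641), the Argonaute that binds small RNAs against expressed germ line genes, had 1562, 1664 and 1273 normalized reads in the Day 1 RNAi libraries, against 2315, 2379 and 2180.2 in the L4 RNAi libraries. It had 2802, 2948 and 2992 in Day 1 control libraries, against 2741, 3014 and 2691 in L4 control libraries. The RNAi stages were apart and the control stages overlapped, and its log2 fold change was −0.57 ± 0.08 (SE, adjusted p = 0.00532) in RNAi gonads and 0.04 ± 0.06 (SE) in control gonads, a difference of −0.61 (adjusted p = 0.0167, lost without Day 1 control library a or b or L4 control library a). ppw-2, another Argonaute gene, and znfx-1, a helicase gene of the neighbouring Z granules, fell by 0.57 and 0.39 (adjusted p = 0.00901 and 0.0146). The first call was lost without Day 1 RNAi library b, and the second without any RNAi library but L4 RNAi a or c. In control gonads 23 of the 66 rose and 8 fell, with a median of 0.31. Without L4 RNAi library a, 5 of the 66 fell in RNAi gonads, and the difference passed for 5 with the higher and 23 with the lower change in RNAi gonads, against 0 and 1 with all libraries.

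**Figure D4:**
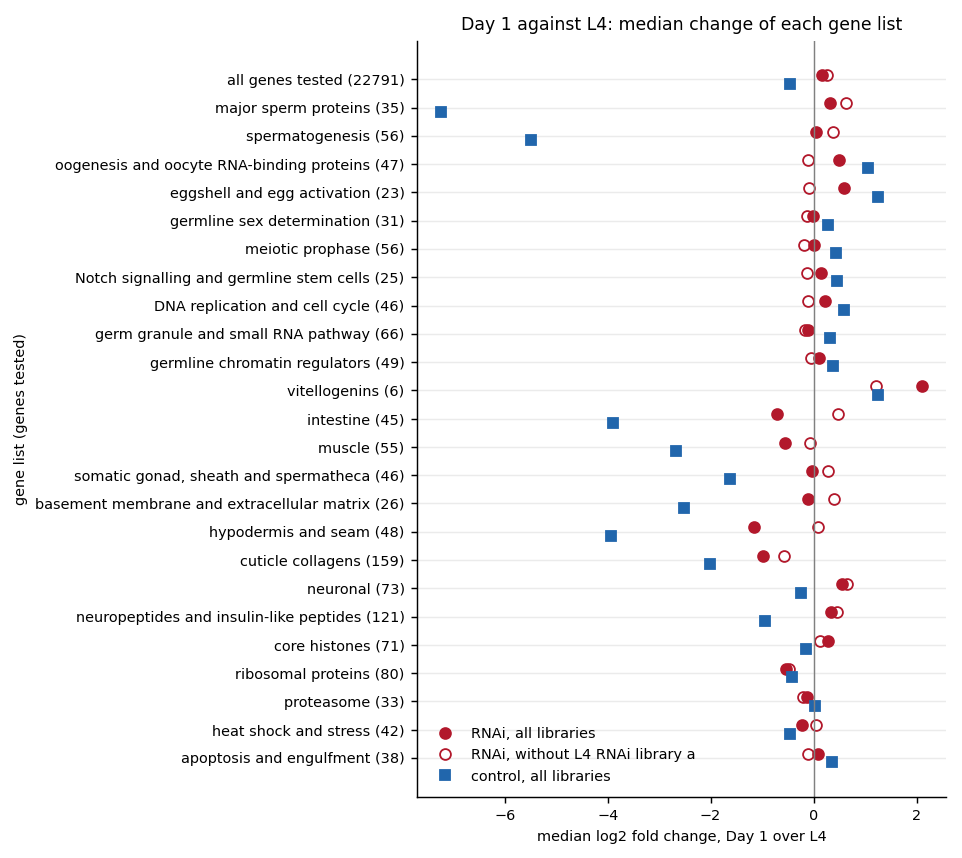
Median log2 fold change of Day 1 over L4 for each gene list, in RNAi gonads with all libraries, in RNAi gonads without L4 RNAi library a, and in control gonads. The ribosomal protein list lies at −0.54, −0.47 and −0.41, and the major sperm protein list at 0.32, 0.63 and −7.23.

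No listed sperm gene was called between L4 and Day 1 in RNAi gonads, whereas many fell at Day 1 in control gonads. Major sperm proteins are the cytoskeletal proteins of nematode sperm, and of 35 tested genes none was called in RNAi gonads by limma voom, with a median log2 fold change of 0.32. In control gonads all 35 fell, with a median of −7.23 (23 fell without Day 1 control library b and 2 without Day 1 control library a), and 30 of them passed the test of the difference between treatments (2.11% of all genes passed it in that direction). The 35 genes together took 0.0974%, 0.284% and 0.120% of reads in the Day 1 RNAi libraries, against 0.140%, 0.1157% and 0.0675% in the L4 RNAi libraries. They took 0.00172% or less in the Day 1 control libraries, against 0.227%, 0.138% and 0.147% in the L4 control libraries. The 6 RNAi libraries overlapped, and each was above all Day 1 control libraries. Day 1 control gonads were cut at the bend, while stunted Day 1 RNAi gonads were taken whole. The part of this dissection in the sperm gene values was not tested. Reads of near-identical msp copies may be shared, so single members are uncertain.

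Spermatogenesis genes outside that family gave like counts. Of 56 tested, none was called in RNAi gonads, with a median of 0.05, while 40 fell and 2 rose (spe-39 and wee-1.3) in control gonads, with a median of −5.50, or −5.40 with genes at 0 set to their bound. The difference passed for 29. ssp-9 (WBGene00006038), a sperm-specific gene, had 112.2, 374 and 175 normalized reads in the Day 1 RNAi libraries, against 193, 119.8 and 68.97 in the L4 RNAi libraries. It had no read in the 3 Day 1 control libraries, against 278, 126 and 146 in the L4 control libraries. With a floor of 3 reads over the group, Day 1 RNAi gonads were at least 237-fold higher than Day 1 control gonads for ssp-9, 224-fold for msp-57 and 281-fold for F17E9.5. The dissection, whole for stunted Day 1 RNAi gonads and cut at the bend for controls, differed between these groups. msp-57 (WBGene00003450) had 149.9, 318 and 158 normalized reads in the Day 1 RNAi libraries, against 115.7, 134 and 60.1 in the L4 RNAi libraries. spch-3, a sperm chromatin protein gene, had 391, 669 and 357 normalized reads in the Day 1 RNAi libraries, against 649, 435 and 249 in the L4 RNAi libraries, with a difference of 8.10 (adjusted p = 0.0195, lost without Day 1 control library a or b or L4 control library a). All 10 sperm markers were detected in each of the 6 RNAi libraries, summing to 1676, 4146 and 1925 in the Day 1 RNAi libraries, against 2842, 2251 and 1137 in the L4 RNAi libraries. In the Day 1 control libraries 3, 5 and 7 of the 10 were detected, summing to 4.10, 5.04 and 45.5.

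The count of differences in sperm genes changed with the minimum group mean and with single libraries left out. For the 35 major sperm protein genes it was 34 without L4 RNAi library a, 20 without L4 RNAi library b, 10 without L4 control library a, 2 without Day 1 control library b and 0 without Day 1 control library a, and 7 where genes needed a group mean of at least 10. For the 56 spermatogenesis genes it was 39 higher and 2 lower without L4 RNAi library a, 18 without L4 RNAi library b, 3 without L4 control library a and 0 without Day 1 control library a or b. Of 850 tested genes in the authors' deposited category of sperm genes, none was called in RNAi gonads, with a median of −0.01, while 672 fell in control gonads and 302 passed the test of the difference. The sources used here do not say how that category was chosen, and it is not independent evidence. fog-3, which with fog-1 sets the sperm fate, had 37.7, 49.8 and 92.7 normalized reads in the Day 1 RNAi libraries, against 54.7, 21.9 and 35.6 in the L4 RNAi libraries, and 0.586, 0 and 0 in Day 1 control libraries, against 32.9, 8.02 and 6.95 in L4 control libraries. The fog-3 levels overlapped between stages in RNAi gonads, and the difference was 4.74 (adjusted p = 0.045, lost without Day 1 control library a). In the list of 31 sex determination genes, fog-1 rose and larp-1 fell by 0.38 in RNAi gonads (adjusted p = 0.0155, lost without L4 RNAi library b or Day 1 RNAi library b or c), with a median of −0.01, against 7 that rose and 2 that fell in control gonads. The difference passed for 1 higher and 1 lower member of that list with all libraries and for 1 and 10 without L4 RNAi library a.

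**Figure D5:**
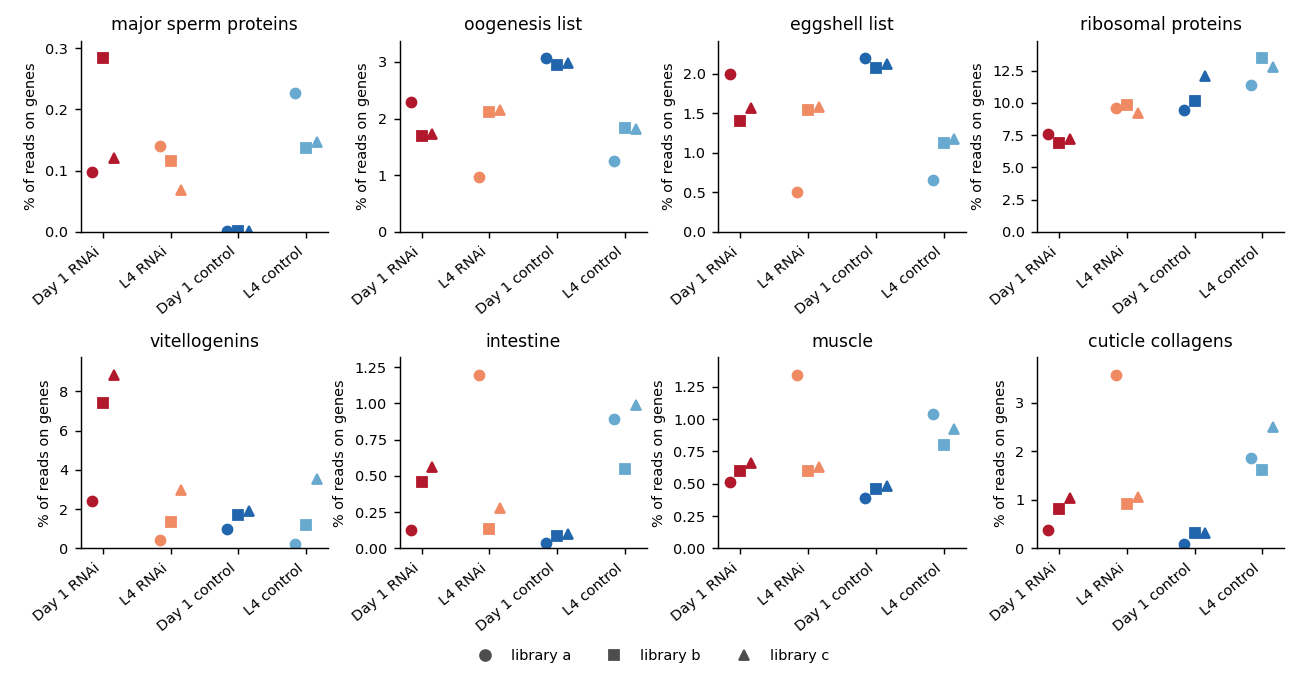
Share of each library's reads taken by each of several gene lists, in percent, with 1 point per library, Day 1 left of L4 within RNAi and within control. Ribosomal protein genes take 6.899% to 7.61% in Day 1 RNAi libraries and 9.22% to 9.85% in L4 RNAi libraries, while for major sperm protein genes the Day 1 control points alone sit near 0.

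Oocyte genes gave no call in RNAi gonads, and their direction there turned on L4 RNAi library a. Of 47 oogenesis genes, none passed in RNAi gonads, with a median of 0.50 with all libraries and −0.10 without that library. In control gonads 30 rose and 1 (moe-3) fell, with a median of 1.05. oma-2 (WBGene00003865), an RNA-binding protein needed for oocyte maturation, had 1200.4, 906 and 827 normalized reads in the Day 1 RNAi libraries, against 335, 1092 and 1197 in the L4 RNAi libraries, and 2142, 2174 and 2269.8 in Day 1 control libraries, against 464, 994 and 1243 in L4 control libraries. rme-2 (WBGene00004374), the yolk receptor gene, had 4825, 2999 and 3387 normalized reads in the Day 1 RNAi libraries, against 1054, 4599 and 4354 in the L4 RNAi libraries, and 7464, 6735 and 6879 in Day 1 control libraries, against 1787, 3629 and 3868 in L4 control libraries. In both genes, L4 RNAi libraries b and c lay within the Day 1 RNAi range and library a lay far below it, and every Day 1 control library was above every RNAi library. The 8 oocyte markers, all detected in every library, summed to 38562, 25697 and 27727 in the Day 1 RNAi libraries, against 11257, 35852 and 34806 in the L4 RNAi libraries. The difference between treatments passed for 2 of the 47 with all libraries, gld-2 at −0.55 and sqd-1 at −0.39 (adjusted p = 0.0346 and 0.0318, both lost without Day 1 or L4 control library a), and for 41 without L4 RNAi library a, 40 of them with the lower change in RNAi gonads. The control count of 30 was 17 without L4 control library b or c, 7 without Day 1 control library b and 0 without L4 control library a or Day 1 control library a.

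Eggshell genes were split. Of 23, perm-2 and perm-4 rose in RNAi gonads and the other 21 did not pass, with a median of 0.58 with all libraries and −0.09 without L4 RNAi library a. In control gonads 14 rose, with a median of 1.25. No member passed the test of the difference with all libraries (3247 of all genes had an unadjusted p below 0.05 in that test), and 17 passed without L4 RNAi library a, all with the lower change in RNAi gonads.

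Genes of dividing and meiotic germ cells showed the same dependence. Of 46 DNA replication and cell cycle genes, none was called in RNAi gonads, with a median of 0.22 and, without L4 RNAi library a, −0.12, while 20 rose in control gonads, with a median of 0.60. Of 56 meiotic prophase genes, none was called in RNAi gonads (median 0.01), and 3 rose in control gonads. Of 25 genes of Notch signalling and germ line stem cells, none was called in RNAi gonads (median 0.14), while 8 rose and 1 fell in control gonads. Without L4 RNAi library a, 30 replication, 10 meiotic and 11 stem cell genes had a lower change in RNAi than in control gonads by the test of the difference, against 0, 0 and 1 with all libraries. Of 49 germ line chromatin regulators, utx-1 rose in RNAi gonads and 12 rose and 1 fell in control gonads. Of 38 apoptosis genes none was called in RNAi gonads and 10 rose in control gonads. The difference passed for none of these with all libraries. It passed, without L4 RNAi library a, for 2 chromatin genes with the higher and 15 with the lower change in RNAi gonads, and for 1 and 9 apoptosis genes.

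Yolk protein genes had their highest shares in Day 1 RNAi libraries b and c, without a call in the fit to all 12 libraries. Vitellogenins are made in the intestine and carried to oocytes, and the 6 genes took 2.40%, 7.43% and 8.85% of reads in the Day 1 RNAi libraries, against 0.429%, 1.33% and 3.00% in the L4 RNAi libraries. They took 0.979%, 1.72% and 1.92% in the Day 1 control libraries, against 0.235%, 1.18% and 3.53% in the L4 control libraries. The RNAi stages overlapped, since Day 1 RNAi library a lay below L4 RNAi library c. The list median was 2.11 in RNAi gonads, 1.21 without L4 RNAi library a, and 1.25 in control gonads. In the fit to all 12 libraries with the deposited size factors, none of the 6 passed in any comparison. In RNAi gonads vit-2, vit-5 and vit-6 were each called under 1 of the 12 omissions of 1 library. With upper-quartile scaling 4 of the 6 rose in control gonads. vit-2 (WBGene00006926), with 18243, 56321 and 69002 normalized reads in the Day 1 RNAi libraries, against 5011, 11151 and 22123 in the L4 RNAi libraries, had a log2 fold change of 1.98 ± 0.98 (SE, adjusted p = 0.705). The intestine markers above, which hold vit-2 and vit-6, moved with these shares.

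Genes of intestine, muscle and hypodermis gave no call in RNAi gonads, and many fell in control gonads. Of 45 intestine genes that are not vitellogenins, none was called in RNAi gonads and 33 fell in control gonads (median −3.89). They took 0.129%, 0.460% and 0.562% of reads in the Day 1 RNAi libraries, against 1.20%, 0.137% and 0.280% in the L4 RNAi libraries. The RNAi median was −0.71 with all libraries and 0.48 without L4 RNAi library a, so its direction turned on that library. Of 55 muscle genes none was called in RNAi gonads (median −0.56), while 33 fell and 2 (unc-45 and pat-3) rose in control gonads (median −2.67). Of 48 hypodermis genes none was called in RNAi gonads (median −1.15), and 16 fell in control gonads (median −3.94). Without L4 RNAi library a, those RNAi medians were −0.08 for muscle and 0.08 for hypodermis, and the difference between treatments then passed for 37 intestine, 35 muscle and 11 hypodermis genes in the direction of RNAi gonads, against none with all libraries. rol-6 (WBGene00004397), a collagen gene that the transgene also carries, had 19.8, 13.04 and 30.9 normalized reads in the Day 1 RNAi libraries, against 417, 1.15 and 26.7 in the L4 RNAi libraries.

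Matrix genes repeated that pattern with some calls of the difference. Of 26 basement membrane genes none was called in RNAi gonads (median −0.12). Without L4 RNAi library a, 1 member, let-2, rose there by 0.58 (adjusted p = 0.0335), with a median of 0.39. In control gonads 16 fell and 1 rose (median −2.52). let-2 (WBGene00002280) encodes a chain of type IV collagen, and had 3528, 3708 and 4845 normalized reads in the Day 1 RNAi libraries, against 4454, 2483 and 2452 in the L4 RNAi libraries, and 195, 333 and 461 in Day 1 control libraries, against 2615, 2146 and 2580.1 in L4 control libraries. emb-9 (WBGene00001263), the other chain of that collagen, had 1353, 1533 and 1929 normalized reads in the Day 1 RNAi libraries, against 2346, 1109 and 1228 in the L4 RNAi libraries, and 118, 252 and 276 in Day 1 control libraries, against 1579.8, 1112 and 1476 in L4 control libraries. Day 1 RNAi levels of both lay above all Day 1 control levels, with differences of 3.45 for let-2 and 2.97 for emb-9 (adjusted p = 0.00767 and 0.0182), the first lost without Day 1 control library a and the second without Day 1 control library a or b or L4 control library a. These were among 4 members that passed the difference with all libraries, beside cle-1 and ost-1, and the count was 15 without L4 RNAi library a, 1 without L4 control library a or Day 1 control library b and 0 without Day 1 control library a. Of 159 cuticle collagen genes, col-95 rose and col-139 fell in RNAi gonads (median −0.99), and 2 rose and 35 fell in control gonads (median −2.01). With genes at 0 in a group set to their bound, these medians were −1.53 and −2.71. All Day 1 RNAi libraries were below all L4 RNAi libraries for 57 of the 159 and above them for 5. Over all genes these shares were 4.52% and 6.88%. In RNAi gonads 16 collagen genes fell and 1 rose without L4 RNAi library a (median −0.57), and 28 passed the difference with the higher change in RNAi gonads, against none with all libraries. With upper-quartile scaling 30 fell in RNAi gonads, and with limma-trend at a pseudocount of 1 31 did. col-139 (WBGene00000712) had 68.2, 202 and 244 normalized reads in the Day 1 RNAi libraries, against 2058, 1390.3 and 1037 in the L4 RNAi libraries (log2 fold change −3.63 ± 0.73 SE, adjusted p = 0.0449, lost without L4 RNAi library b or any 1 Day 1 RNAi library, and −2.86 without Day 1 RNAi library a).

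Of 46 genes of the somatic gonad, sheath and spermatheca, none was called in RNAi gonads (median −0.03), and 5 rose and 14 fell in control gonads. With L4 RNAi library a left out, 1 fell in RNAi gonads (median 0.27) and the difference passed for 16 with the higher and 5 with the lower change in RNAi gonads, against none with all libraries. Of 73 neuronal genes, tbh-1 rose in RNAi gonads (median 0.56), while 6 rose and 3 fell in control gonads (median −0.25), and casy-1, a calsyntenin gene, passed the difference at 2.27 (adjusted p = 0.0231, lost without Day 1 control library a). In 17 of these 73 genes all Day 1 RNAi libraries were above all L4 RNAi libraries, and over all genes this held for 6.88%. It was not particular to neuronal genes, since it held for 18 of 71 core histone genes as well. Of 121 neuropeptide and insulin-like genes none was called in RNAi gonads and 6 fell in control gonads, and of 71 core histone genes none was called in RNAi gonads and 10 fell in control gonads. The difference passed without L4 RNAi library a, with the higher change in RNAi gonads, for 10 neuronal, 6 neuropeptide and 14 histone genes and with the lower change for 4 neuronal genes, against 1 neuronal gene with all libraries. Of 33 proteasome genes none was called in RNAi gonads and 1 fell in control gonads. Of the 4 RNAi targets none was called in RNAi gonads (median −0.48), and 1 fell in control gonads.

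Calls in RNAi gonads are given here by the authors' deposited categories, beside 0.176% higher and 0.426% lower over all genes. Of 1889 ubiquitous genes tested, 6 rose and 52 fell in RNAi gonads. Of 2201 germline-enriched genes none rose and 24 fell, and of 169 germline-specific genes none was called. Of 1174 soma-specific genes, 5 rose and 1 fell. The share that fell was above that of all genes for ubiquitous and germline-enriched genes, and below it for soma-specific genes. In control gonads the germline-specific genes gave 58 calls, all higher at Day 1, and the soma-specific genes gave 27 higher and 263 lower. Over all genes 3.92% were higher and 11.7% lower there.

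Genes called in control gonads are given here with their values in RNAi gonads. They were chosen for passing in control gonads, so a smaller median in RNAi gonads follows in part from that choice and is a description, not a test, beside a median of 0.16 over all genes in RNAi gonads. The 893 genes that rose in control gonads, by a median log2 fold change of 0.78, had a median of 0.26 in RNAi gonads, where 89.6% had the same sign and 9 were called. The 2669 genes that fell in control gonads, by a median of −4.06, had a median of −0.37 in RNAi gonads, where 74.8% had the same sign, 67 were called lower and 5 higher. The test of the difference passed in the direction opposite to the control change for 12 of the 893 and 468 of the 2669. Those counts hold genes whose change in RNAi gonads was smaller and genes in which it was reversed. The control change is subtracted in that test, so the counts among these genes also follow in part from their choice. Over all genes that test called 504 (2.21%), 480 of them positive (2.11%) and 24 negative (0.105%). Without L4 RNAi library a, 1680 genes rose in control gonads (7.32%) and 48.5% of them had the same sign in RNAi gonads, with a median of −0.01. Of the 3943 genes that then fell in control gonads (17.2%), 34.3% had the same sign in RNAi gonads, with a median of 0.28. The difference then passed in the direction opposite to the control change for 683 and 2436 of these genes, reversed changes included.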

How the data were processed

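RNA was extracted with Trizol, depleted of ribosomal RNA and made into libraries with a kit that does not keep strand, per the labels' protocols, so overlapping antisense genes cannot be told apart. TopHat2 and DESeq2 are named in the submitters' processing notes; no source used here gives the genome build, annotation or read counter. The authors deposited 1 table of 45627 genes, 45446 with values, in which each signal value is a group average of reads divided by size factors, per the file headers, beside log2 fold changes and p-values that the authors deposited and that are not reported here. Whole reads of each library were recovered from the averages, with a single solution for all but 1 to 3 genes in 3 of the groups used, and gave back the deposited mean expression of all 10073 (L4) and 12008 (Day 1) genes checked, to a relative tolerance of 1e-06. The averages do not say which labelled replicate a library is. Then limma voom (limma 3.58.1, R 4.3.3) was run on the recovered reads of 12 libraries in 4 groups, with the deposited size factors and genes averaging at least 1 normalized read in a group (22791), with Benjamini-Hochberg adjustment. On simulated data the share of false calls was above the nominal 0.05 in every comparison, and most simulated 2-fold changes were missed, so counts of calls are uncertain in both directions. Genes were named by size of change among called genes whose stages do not overlap and that average at least 50 normalized reads, by smallest p within each of 25 lists, and for the difference by the same filters with no overlap in RNAi or in control gonads. List members named because few passed, the genes and families said to be so in the text, and far-2, ctsa-1.1, pho-14, hex-1, gst-24, skpo-1, C39D10.7, ccg-1, F37C4.5, spat-3, sdz-27, Y69H2.3, gcn-1, iars-1, vars-2, eef-2, rpoa-1, rpoa-2, nol-5, cct-2, cct-8, oma-2, rme-2 and rol-6 were chosen after their values were seen. The members and lists themselves were chosen with earlier results of these data known. Alternatives changed the groups fitted, filter, scaling, test, pseudocount, weights and libraries. Identifiers matched reference names in 42240 cases, and 6 names stored as numbers were replaced. The 17 other samples were not used here. Recovery used Python 3.11.15, numba 0.67.0, numpy 2.4.6 and pandas 2.3.3.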

Additional observations from a re-analysis of the deposited data

Results flagged for a closer look

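The values here are the log2 fold change of Day 1 over L4 in RNAi gonads minus that in control gonads, for named genes in which that difference passed limma voom at an adjusted p below 0.05. Each came up because its larva-to-adult change differed between the treatments, and the cause was not tested. Without Day 1 control library a, far-2 alone kept a positive call.

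Sperm genes had positive differences: 9.61 for ssq-2, 9.47 for F17E9.5, 9.45 for Y59E9AR.7, 9.31 for msrp-2, 9.26 for ssq-4, 9.24 for msp-57, 9.17 for nspd-2 and 9.14 for nspd-1. Further ones were 8.94 for msp-64, 8.94 for ssp-9, 8.10 for spch-3, 7.83 for msp-40 and 6.69 for msp-31. Those with no read in the Day 1 control libraries are fitted values that depend on the prior count and are no bound. With the floor of 3 reads over the group, Day 1 RNAi gonads were at least 184-fold higher than Day 1 control gonads for nspd-2, 287-fold for nspd-1 and 214-fold for Y59E9AR.7. Control gonads were cut at the bend and stunted Day 1 RNAi gonads were taken whole, and the part of this was not tested. Reads shared by near-identical copies make the msp, ssq and nspd values uncertain.

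Genes that rose in RNAi gonads and not in control gonads differed by 1.95 for far-2, 2.08 for ctsa-1.1, 2.67 for pho-14, 2.70 for hex-1, 5.29 for gst-24, 2.83 for ccg-1, 2.39 for F37C4.5 and 2.31 for Y69H2.3. The collagen IV genes differed by 3.45 for let-2 and 2.97 for emb-9, and neither passed in RNAi gonads with all libraries, while let-2 rose there without L4 RNAi library a.

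Negative differences were smaller, and none of them was called without Day 1 control library a or without L4 control library a. Metabolic and regulatory genes differed by −1.12 for sams-3, −0.85 for gsy-1, −0.78 for ccf-1 and −0.71 for rgr-1. They encode an S-adenosylmethionine synthetase (sams-3), glycogen synthase (gsy-1), a deadenylase subunit (ccf-1) and a Mediator subunit (rgr-1). F25G6.9 and T11G6.5, which have only sequence names here, differed by −0.81 and −0.60. Chaperone and translation genes differed by −0.81 for dnj-13, −0.63 for clu-1, −0.62 for iffb-1, −0.46 for hsp-110, −0.45 for daf-21, −0.55 for vars-2, −0.50 for cct-2 and −0.53 for cct-8. The Argonaute csr-1 differed by −0.61 and the actin gene act-2 by −0.40, the second of which has near-identical copies.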

How the results depend on the processing

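Calls in RNAi gonads, 40 higher and 97 lower, depended on the fit. Genes higher numbered 2 with the RNAi groups alone, 63 with a minimum group mean of 10, 19 with upper-quartile scaling, 19 and 15 with limma-trend at pseudocounts of 1 and 0.5, and 10 without library c of both Day 1 groups, an alternative chosen after seeing the data. Genes lower numbered 4 with the RNAi groups alone, 53 with 7 groups, 60 with the minimum of 10, 18 with total reads, 36 with upper-quartile scaling, 60 with a quality weight per library and 0 without the Day 1 c libraries. Leaving out each of the 12 libraries gave 16 to 42 higher and 11 to 109 lower. Control calls, 893 higher and 2669 lower, became 1706 and 4140 with the control groups alone and 2386 and 10063 with quality weights, and upper-quartile scaling gave 5404 higher and 2134 lower. Their leave-one-out ranges were 1 to 1680 higher and 15 to 3943 lower. Differences between treatments, 480 positive and 24 negative, were 1088 and 38 with 7 groups, 47 and 3 with the minimum of 10, and 3577 and 548 with quality weights. Limma-trend gave 757 positive at a pseudocount of 0.5, and 12 negative at 0.5 and 11 at 1. Without the Day 1 c libraries 1038 were positive and 12 negative. Total reads gave 10 negative and upper-quartile scaling 379. Their leave-one-out ranges were 1 to 2563 positive and 0 to 786 negative. The cause of these shifts was not tested, except that leaving out libraries leaves fewer samples.

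For single named genes no alternative turned the direction of a called change in RNAi gonads or of a called difference. Of these values 3517 kept their side of the threshold, 706 fell short of it and 28 passed it. No paired analysis was possible because the recovered libraries carry no replicate number. Total-read scaling moved the median of all genes by 0.12 in RNAi gonads, and upper-quartile scaling moved it by 1.14 in control gonads and by −1.32 in the difference between treatments. Depth limited low genes: the floor of 3 reads over a group was 1.33 normalized reads in Day 1 RNAi, 1.32 in L4 RNAi, 0.930 in Day 1 control and 2.06 in L4 control gonads, and it covers counting error only.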
